A study of Mus musculus with 12 samples.

Results

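The insulin-like growth factor (IGF) axis was followed across leukaemic and normal T-lineage cells of the mouse through 9 genes of a table of 54351: the receptors Igf1r, Insr and Igf2r, the substrates Irs1 and Irs2, the adaptor Grb10, the ligands Igf1 and Igf2, and the binding protein Igfbp4. They were taken by symbol, whatever their values, and all 9 were in the table. In the leukaemic cells of LN3 mice, a model of T-cell acute lymphoblastic leukaemia (T-ALL), Igf1r was 3.52-fold higher in the thymus and 3.48-fold higher in the spleen than in normal cells of the same organ, and Irs1 was 37.9-fold and 172-fold higher. Insr and Irs2, the other insulin-type receptor and substrate, did not pass the test in either organ.

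IGF1 and IGF2 are secreted peptides that bind the receptor tyrosine kinase IGF1R, a close relative of the insulin receptor. The activated receptor phosphorylates IRS1 and IRS2, docking proteins that recruit PI3 kinase and so connect the receptor to AKT, mTOR and FOXO factors, while a second branch runs through GRB2 to RAS and MAP kinases. IGF2R lacks a kinase and carries IGF2 to lysosomes, and IGF-binding proteins hold the ligands outside the cell. In lymphoid tissues, macrophages and stromal cells are known sources of IGF1.

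Poly(A) RNA was sequenced from 4 groups of 3 libraries, all of the C57BL/6 strain. The LN3 thymus and LN3 spleen groups held T-ALL cells, freed mechanically from the organs of overtly sick transgenic mice labelled LN3 tg, while the WT thymocytes and the WT CD8 cells came from the thymus and spleen of tumour-free wild-type mice. The WT CD8 cells were enriched by depletion of other cells with a kit, to a stated purity of 85 to 95%, whereas the LN3 spleen cells and both thymus groups were not enriched, per the labels. The sources used here give neither the transgenes of the LN3 line with their promoters, nor the ages of the mice, nor whether each library came from a separate animal, so that p-values measure the spread between these libraries, which may in part be technical. The LN3 thymus and LN3 spleen libraries carry the same tumour numbers, T-ALL1 to T-ALL3, without a statement that a number marks 1 animal. In these bulk samples, fewer cells of a type and less RNA per cell cannot be told apart.

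Libraries held 12694571 to 42483898 counts, and 3 counts, taken as the floor of detection, corresponded to 0.0657 to 0.262 counts-per-million (CPM, scaled with TMM factors). All 10 T-cell markers checked had counts in every library, with summed levels of 3491 to 5821 CPM in LN3 thymus, 3789 to 4026 CPM in LN3 spleen, 3916 to 8507 CPM in WT thymocytes and 2123 to 3347 CPM in WT CD8 cells. The co-receptor gene Cd4 was at 90.8, 15.1 and 22.4 CPM in LN3 thymus, against 1042, 777 and 1544 CPM in WT thymocytes. Cd8a was at 264.8, 461.5 and 162.6 CPM in LN3 thymus, against 1522, 1387 and 2625 CPM in WT thymocytes. The thymus groups may therefore differ in maturation stage as well as genotype, and the 2 cannot be told apart here. In LN3 spleen Cd8a was at 235.2, 143.2 and 153.6 CPM, against 645.1, 765.9 and 1035 CPM in WT CD8 cells. Cd4 overlapped there, at 13.95, 20.73 and 6.947 CPM, against 37.76, 17.75 and 5.079 CPM. The spleen groups may likewise differ in maturation stage, besides genotype and enrichment, and these cannot be told apart here. The share of counts on a ribosomal RNA feature ran from 0.44% to 10.5%, and counts increased most steeply with GC content in WT thymocyte library 3, LN3 spleen library 1 and LN3 thymus library 2.

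Of the 9 genes, 8 passed the filter on low counts and were tested together with 20897 genes in all, and Igf2 did not. A gene was called when its adjusted p, from edgeR's quasi-likelihood test with Benjamini-Hochberg adjustment over all genes tested, was below 0.05. In LN3 thymus against WT thymocytes, 2 of the 8 were called, both higher, where 11.3% of all genes tested were called, 6.06% higher and 5.21% lower. In LN3 spleen against WT CD8 cells, the count was again 2 of 8, both higher, where 30.9% of all genes were called, 17.9% higher and 13% lower. Higher calls were 53.8% of all calls in the thymus and 58.0% in the spleen with TMM scaling, and 38.2% and 40.0% with library totals, under which both Igf1r and Irs1 stayed called higher. The median log2 difference of the 8 genes was 0.50 in the thymus, against -0.04 over all genes, and -0.22 in the spleen, against -0.11 over all genes.

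**Figure D1:**
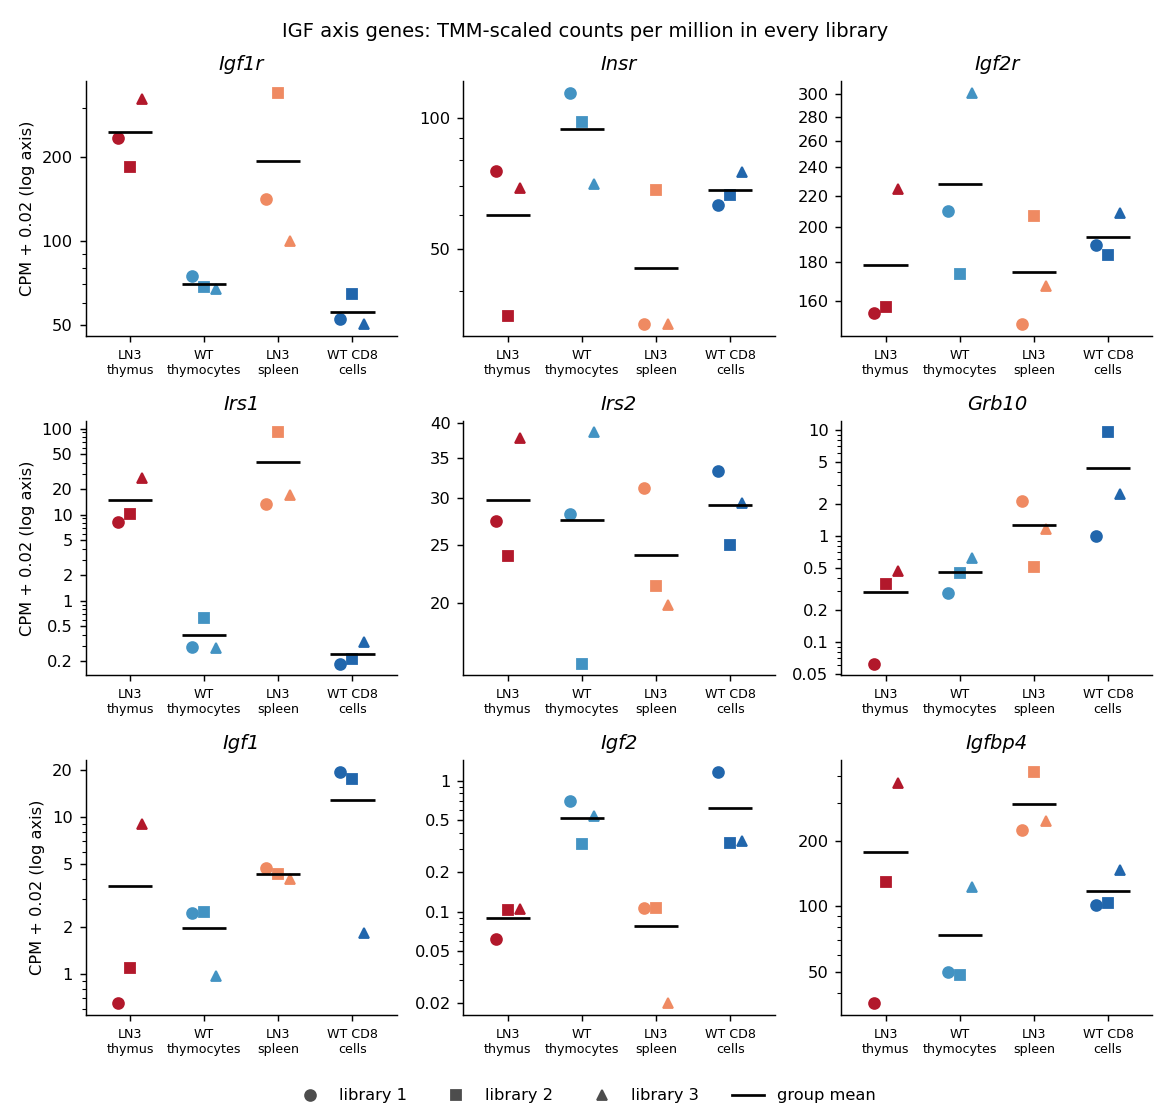
Level of each of the 9 genes in every library, as TMM-scaled CPM plus 0.02 on a log axis, with 1 panel per gene, 1 marker shape per library number and a bar at the group mean. For Igf1r and Irs1 all 6 LN3 libraries lie above all 6 wild-type libraries, and for Irs2 the 4 groups lie over each other.

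Igf1r encodes the type 1 IGF receptor and lies on chr7:67952827-68233668 (plus strand, GRCm38, GENCODE M21). It had 233, 184 and 323 CPM in the 3 LN3 thymus libraries, against 74.7, 68.5 and 67.1 CPM in WT thymocytes. In the spleen it had 142, 341 and 100.2 CPM in LN3 cells, against 52.7, 64.6 and 50.3 CPM in WT CD8 cells. No LN3 library overlapped the wild-type range in either organ, and the LN3 libraries were spread more widely than the wild-type ones. The log2 difference was 1.82 in the thymus (SE 0.39, 95% interval 0.97 to 2.66, edgeR adjusted p = 0.0101) and 1.80 in the spleen (SE 0.39, interval 0.96 to 2.64, edgeR adjusted p = 0.00446). The difference between the organs in this contrast was -0.02 on the log2 scale, with an interval of -1.17 to 1.14 (edgeR interaction, adjusted p = 0.991). LN3 spleen library 2 carried much of the spleen value: without it, the Igf1r difference was 1.16 (edgeR adjusted p = 0.0111). The order of the 4 mean levels was LN3 thymus, LN3 spleen, WT thymocytes and WT CD8 cells, and the test was passed neither between the LN3 groups (log2 difference of spleen over thymus -0.35, edgeR adjusted p = 0.871) nor between the wild-type groups (WT CD8 cells over WT thymocytes -0.33, edgeR adjusted p = 0.635).

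Irs1 encodes a docking protein of the IGF1 and insulin receptors and lies on chr1:82233101-82291416 (minus strand). It had 8.23, 10.2 and 26.4 CPM in LN3 thymus, against 0.270, 0.613 and 0.258 CPM in WT thymocytes. In LN3 spleen it had 13.2, 90.7 and 17.1 CPM, against 0.164, 0.190 and 0.307 CPM in WT CD8 cells. In raw counts these were 196, 123 and 936 in LN3 thymus, against 4, 10 and 3 in WT thymocytes, then 151, 3131 and 300 in LN3 spleen, against 3, 6 and 14 in WT CD8 cells. The gene was thus near the floor of detection in every wild-type library and well above it in every LN3 library, with LN3 spleen library 2 and LN3 thymus library 3 the highest. The log2 difference was 5.25 in the thymus (SE 0.85, 95% interval 3.41 to 7.09, edgeR adjusted p = 0.00205) and 7.43 in the spleen (SE 0.91, interval 5.47 to 9.39, edgeR adjusted p = 0.000125). Without LN3 spleen library 2 the spleen difference was 6.05 (edgeR adjusted p = 0.000106), and without LN3 thymus library 3 the thymus difference was 4.54 (edgeR adjusted p = 0.0058). The spleen difference exceeded the thymus difference by 2.18, with an interval of -0.23 to 4.60 that includes 0 (edgeR interaction, adjusted p = 0.337). LN3 spleen over LN3 thymus gave 1.43 (interval -0.03 to 2.89, edgeR adjusted p = 0.589). The mean levels ran in the order LN3 spleen, LN3 thymus, WT thymocytes and WT CD8 cells, and neighbouring groups of the same genotype did not pass the test.

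An annotated gene on the opposite strand, Gm9747, shares 2822 exonic bases with Irs1. The sources used here do not state whether the counting used the strand of the reads, so reads within shared bases cannot be told apart. Irs1 has 9144 exonic bases in all, and the rest are not shared with Gm9747. Gm9747 was given 0, 0 and 106 counts in LN3 thymus, 0, 459 and 38 counts in LN3 spleen, none in WT thymocytes and 0, 0 and 1 counts in WT CD8 cells. In each library it had fewer counts than Irs1, and it was highest in the libraries where Irs1 was highest.

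Among 12 markers of stroma, endothelium and epithelium, the summed level was 115, 145 and 269 CPM in LN3 thymus, against 145, 126 and 247 CPM in WT thymocytes, and 117, 372 and 260.0 CPM in LN3 spleen, against 139, 140.0 and 142 CPM in WT CD8 cells, so that it was highest where Irs1 was highest. WT thymocyte library 3 had a sum of 247 CPM, with Pecam1 at 202 CPM and Col1a2 at 3.44 CPM. This library had 0.258 CPM of Irs1 and 67.1 CPM of Igf1r. Most of the sum came from Pecam1, which lymphocytes also express, at 97.7 to 202 CPM in every library, and from Col1a2. Col1a2 was at 6.55, 8.36 and 93.4 CPM in LN3 thymus, against 1.01, 0.184 and 3.44 CPM in WT thymocytes. In LN3 spleen Col1a2 was at 1.22, 249 and 143 CPM, against 0.546, 0.506 and 0.613 CPM in WT CD8 cells. Within each LN3 group Col1a2 was highest in the library with the most Irs1. Of the 9 list genes tested, 1 was called higher and 1 lower in the thymus, and 1 higher and 0 lower in the spleen. The fibroblast gene Col3a1 was at 1.85, 12.6 and 10.8 CPM in LN3 thymus, against 2.03, 0.184 and 7.57 CPM in WT thymocytes, and at 0, 0.232 and 0.171 CPM in LN3 spleen, against 0, 0.633 and 0.569 CPM in WT CD8 cells. Dcn, which encodes the matrix proteoglycan decorin, was at 0.336, 2.98 and 8.17 CPM in LN3 thymus, against 2.43, 0.184 and 0.516 CPM in WT thymocytes, and at 0, 0.203 and 0.0569 CPM in LN3 spleen, against 0.328, 0.506 and 0.263 CPM in WT CD8 cells. Dcn was thus highest in LN3 thymus library 3, the LN3 thymus library with the most Irs1, and near 0 in LN3 spleen.

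Markers of other cells also differed in the spleen comparison. The 6 erythroid markers summed to 5603, 1613 and 5393 CPM in LN3 spleen, against 132, 608 and 34.9 CPM in WT CD8 cells, and 2 of the 6 were called higher. The 4 natural killer (NK) cell markers summed to 10.1, 8.02 and 4.5 CPM in LN3 spleen, against 353, 142 and 131 CPM in WT CD8 cells. All 4 were called lower. In WT CD8 cells Eomes, which is not confined to NK cells, was at 111, 95.6 and 91.05 CPM. Eomes was thus most of the sum in WT CD8 libraries 2 and 3, and Ncr1 was at 91.4, 15.7 and 8.12 CPM. LN3 spleen library 2, with the most Igf1r and Irs1, had the lowest erythroid sum of the LN3 spleen libraries. The part of other cells in the Igf1r and Irs1 differences was not tested.

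The sequence before the RefSeq start of Igf1r and Irs1 is shown because these were the members called in both organs, and that of Irs2 because it is the substrate that was not. RefSeq windows (build GRCm38.p6) of 250 bases before to 50 after the start were matched for 8 of the 9 genes, in 12 windows, and Insr had no entry. On both strands, CACGTG, the E-box that MYC and MAX bind, and TGGGAA, the core of the site bound by RBPJ, the DNA-binding partner of NOTCH, were searched. CACGTG occurs in 7.15% and TGGGAA in 25.6% of 32851 such windows. Capitals mark these words below, and positions count from the start, negative before it.
Igf1r, chr7:67952007-67952256, plus strand: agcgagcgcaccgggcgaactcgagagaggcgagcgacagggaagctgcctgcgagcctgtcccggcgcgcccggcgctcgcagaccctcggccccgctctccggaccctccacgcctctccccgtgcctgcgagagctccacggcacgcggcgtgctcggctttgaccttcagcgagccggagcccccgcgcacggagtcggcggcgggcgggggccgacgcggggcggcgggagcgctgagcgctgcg
Igf1r around position 30, chr7:67952274-67952303, plus strand: gtgtcctggattTGGGAAggagctcgcggc
Irs1, chr1:82291440-82291689, minus strand: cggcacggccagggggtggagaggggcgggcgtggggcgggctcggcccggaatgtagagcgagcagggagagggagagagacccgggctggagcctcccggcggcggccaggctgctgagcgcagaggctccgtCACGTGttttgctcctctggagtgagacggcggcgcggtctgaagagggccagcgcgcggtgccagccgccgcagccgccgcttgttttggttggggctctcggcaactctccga
Irs2, chr8:11008930-11009179, minus strand: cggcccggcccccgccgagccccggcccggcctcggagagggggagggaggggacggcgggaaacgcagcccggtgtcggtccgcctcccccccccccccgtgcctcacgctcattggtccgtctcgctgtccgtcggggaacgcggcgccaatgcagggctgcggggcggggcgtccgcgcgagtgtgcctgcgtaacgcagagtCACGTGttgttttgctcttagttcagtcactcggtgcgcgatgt

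The Igf1r window held no CACGTG and had TGGGAA at position 30, just after the RefSeq start, which lies upstream of the GENCODE start given above. The Irs1 window had CACGTG at -115 and no TGGGAA, and the Irs2 window had CACGTG at -44 and no TGGGAA. Igf2r had 2 copies of CACGTG, at -48 and -7. Igf1 had TGGGAA at -91 on the strand opposite to the gene, and of the 4 Igf2 windows 1 had it at -47 on the strand of the gene and another had 2 copies on the opposite strand, at -158 and -110. CACGTG was thus present before Irs1, which rose in LN3 cells, and before Irs2 and Igf2r, which did not pass the test. These matches describe letters in the windows and not binding.

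Insr, the insulin receptor (chr8:3122061-3279617, minus strand), had 75.7, 35.2 and 69.2 CPM in LN3 thymus, against 114, 97.8 and 70.5 CPM in WT thymocytes. In LN3 spleen it had 33.6, 68.4 and 33.6 CPM, against 63.2, 66.7 and 75.1 CPM in WT CD8 cells. The groups overlapped in both organs, and the log2 differences were -0.65 (interval -1.40 to 0.10, edgeR adjusted p = 0.272) and -0.60 (interval -1.34 to 0.15, edgeR adjusted p = 0.198). LN3 spleen library 2, the one at 68.4 CPM, decided the spleen call: without it the difference was -0.99 and passed the test (edgeR adjusted p = 0.0488).

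Igf2r, the kinase-free receptor that clears IGF2 (chr17:12682406-12769664, minus strand), had 154, 157 and 225 CPM in LN3 thymus, against 210.1, 174 and 301 CPM in WT thymocytes. It had 149, 207 and 167 CPM in LN3 spleen, against 190, 184 and 209 CPM in WT CD8 cells. The groups overlapped, with log2 differences of -0.35 (interval -0.91 to 0.20, edgeR adjusted p = 0.443) and -0.15 (interval -0.71 to 0.40, edgeR adjusted p = 0.658). Limma on the deposited variance-stabilized values called Igf2r lower in LN3 spleen (log2 difference -1.20, adjusted p = 0.0199). That size differed from the -0.15 given by the counts, and the reason was not tested. Airn, the antisense RNA that silences the paternal copy of Igf2r, shares no exonic base with it and was at 21 ± 11.4 CPM in LN3 thymus, 12 ± 6.81 CPM in LN3 spleen, 22.2 ± 16.3 CPM in WT thymocytes and 19.8 ± 4.38 CPM in WT CD8 cells (SD, n = 3 each), and it was called in neither organ.

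**Figure D2:**
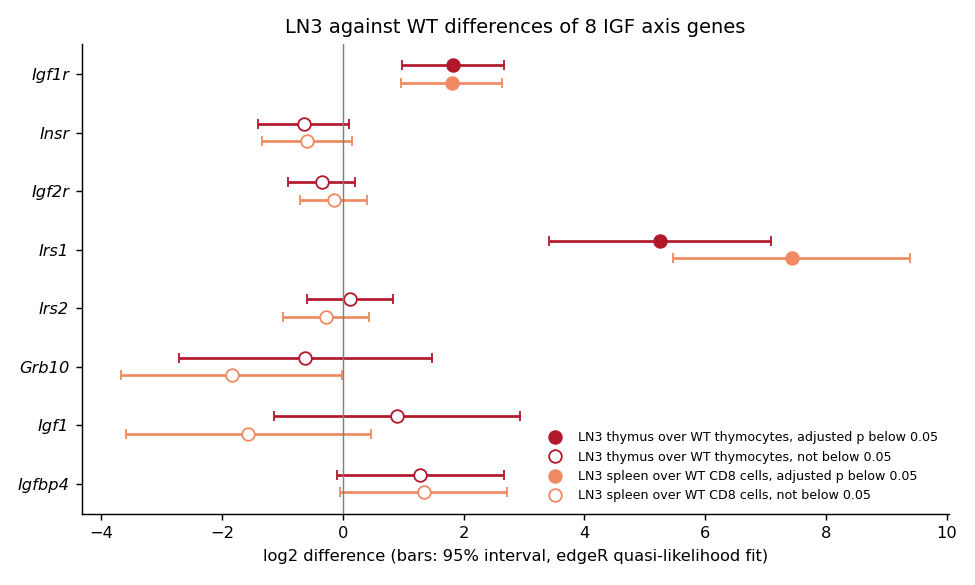
Log2 difference of LN3 over wild-type cells for the 8 tested genes, in the thymus (dark red) and the spleen (orange), with 95% intervals of the edgeR quasi-likelihood fit. Filled circles have an adjusted p below 0.05: Igf1r, at 1.82 and 1.80, and Irs1, at 5.25 and 7.43, while the intervals of Insr, Igf2r, Irs2, Igf1 and Igfbp4 include 0.

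Levels of different genes were compared per kilobase of annotated exon within each library, which does not depend on scaling between libraries. The ratio of Igf1r to Insr was 2.52, 4.29 and 3.83 in LN3 thymus, against 0.535, 0.573 and 0.779 in WT thymocytes. In the spleen it was 3.46, 4.08 and 2.44 in LN3 cells, against 0.683, 0.793 and 0.549 in WT CD8 cells. Igf1r was therefore the more abundant of these receptors in all 6 LN3 libraries and the less abundant in all 6 wild-type libraries. The mean log2 ratios differed by 2.48 in the thymus and 2.29 in the spleen, each with an exact two-sided permutation p of 0.1, the smallest that 3 against 3 libraries allow, and an adjusted p of 0.2 over 8 such tests.

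Irs2, the substrate related to IRS1 (chr8:10984681-11008458, minus strand), had 27.4, 24.0 and 37.7 CPM in LN3 thymus, against 28.2, 15.8 and 38.6 CPM in WT thymocytes. It had 31.1, 21.3 and 19.9 CPM in LN3 spleen, against 33.2, 25.1 and 29.4 CPM in WT CD8 cells. These ranges overlapped, with log2 differences of 0.11 (interval -0.60 to 0.82, edgeR adjusted p = 0.876) and -0.28 (interval -0.99 to 0.43, edgeR adjusted p = 0.524). Per exon length, the ratio of Irs1 to Irs2 was 0.208, 0.294 and 0.483 in LN3 thymus, against 0.00745, 0.0281 and 0.00538 in WT thymocytes. It was 0.293, 2.94 and 0.595 in LN3 spleen, against 0.00398, 0.00567 and 0.00746 in WT CD8 cells. Irs2 was thus the more abundant substrate in 11 of the 12 libraries, and Irs1 exceeded it in LN3 spleen library 2. The mean log2 ratios differed by 4.89 in the thymus and 7.18 in the spleen (exact two-sided permutation p = 0.1 each, adjusted p = 0.2).

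**Figure D3:**
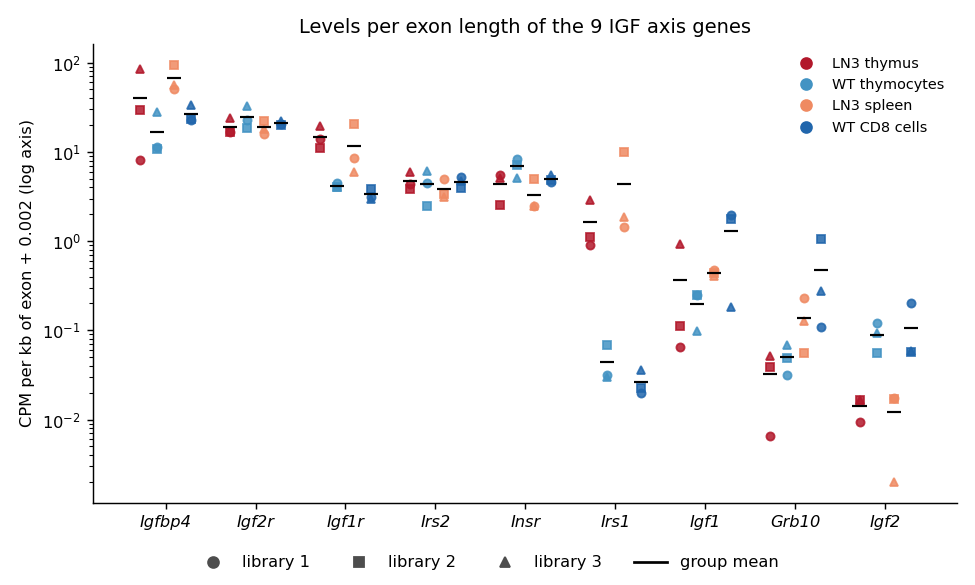
Level of the 9 genes per kilobase of exon in every library, as CPM per kb plus 0.002 on a log axis, ordered by the mean in LN3 thymus, with bars at the group means. Igf1r stands at 11 to 19.3 CPM per kb in LN3 thymus and at 4.0 to 4.45 in WT thymocytes, and Irs1 lies in the middle of the plot in LN3 cells and at the bottom in wild-type cells.

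Ranked by mean level per exon length among the 9 genes, Igf1r was number 3 in LN3 thymus and in LN3 spleen, and number 5 in WT thymocytes and in WT CD8 cells. Its mean was 14.7 ± 4.20 CPM per kb in LN3 thymus and 4.18 ± 0.242 CPM per kb in WT thymocytes, then 11.6 ± 7.65 CPM per kb in LN3 spleen and 3.33 ± 0.456 CPM per kb in WT CD8 cells (SD, n = 3 each). Irs1 was number 6 in LN3 thymus and number 4 in LN3 spleen, and number 9, the lowest, in both wild-type groups. Igfbp4 and Igf2r held the first and second places, in either order, in all 4 groups.

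Grb10, an imprinted adaptor that restrains insulin and IGF1 receptor signalling (chr11:11930508-12038683, minus strand), was scarce. It had 0.0420, 0.331 and 0.451 CPM in LN3 thymus, against 0.270, 0.429 and 0.602 CPM in WT thymocytes, and 2.09, 0.492 and 1.14 CPM in LN3 spleen, against 0.984, 9.46 and 2.47 CPM in WT CD8 cells. The LN3 and wild-type groups overlapped, with log2 differences of -0.62 in the thymus (interval -2.72 to 1.48, edgeR adjusted p = 0.756) and -1.84 in the spleen (interval -3.67 to -0.01, edgeR adjusted p = 0.113). The range of Grb10 in WT CD8 cells lay wholly above that in WT thymocytes.

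The ligand gene Igf1 (chr10:87858265-87937042, plus strand) had 0.630, 1.08 and 9.07 CPM in LN3 thymus, against 2.43, 2.45 and 0.946 CPM in WT thymocytes. It had 4.71, 4.34 and 3.99 CPM in LN3 spleen, against 19.4, 17.5 and 1.80 CPM in WT CD8 cells. The values varied widely within LN3 thymus, where library 3 stood above the rest, and within WT CD8 cells, where library 3 stood below the rest. The LN3 spleen libraries lay close together. The log2 differences were 0.90 in the thymus (interval -1.14 to 2.94, edgeR adjusted p = 0.62) and -1.57 in the spleen (interval -3.59 to 0.46, edgeR adjusted p = 0.211). Without LN3 thymus library 3 the thymus value was -1.22 (edgeR adjusted p = 0.474).

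The macrophage genes C1qa, C1qb and C1qc, which encode complement C1q, were highest in the libraries with most Igf1. Their summed level was 17.3, 55.7 and 143 CPM in LN3 thymus, against 28.7, 13.1 and 55.1 CPM in WT thymocytes. It was 95.1, 53.1 and 69.0 CPM in LN3 spleen, against 175, 151 and 16.6 CPM in WT CD8 cells. The 3 libraries with the highest sum were the 3 with the highest Igf1, and they belong to LN3 thymus and WT CD8 cells. Within WT thymocytes the order was the other way round, since library 3 had the highest sum and the lowest Igf1. Over the 12 libraries, which share 4 groups, the median Pearson correlation with Igf1 on the log2 scale was 0.814 for the macrophage and monocyte markers, 0.679 for 12 dendritic-cell markers and 0.611 for 7 B-cell markers. The whole list of 12 macrophage and monocyte markers summed to 74.6, 234 and 549 CPM in LN3 thymus, against 161, 102 and 267 CPM in WT thymocytes, and to 853, 325 and 392 CPM in LN3 spleen, against 1496, 2941 and 227 CPM in WT CD8 cells. The 3 highest of these sums were in WT CD8 libraries 2 and 1 and LN3 spleen library 1, so LN3 thymus library 3 was not among them. At least 11 of the 12 genes of this list had counts in every library, and 1 was at 0 in WT thymocyte library 2. The part of macrophages, dendritic cells or B cells in the Igf1 values was not tested.

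**Figure D4:**
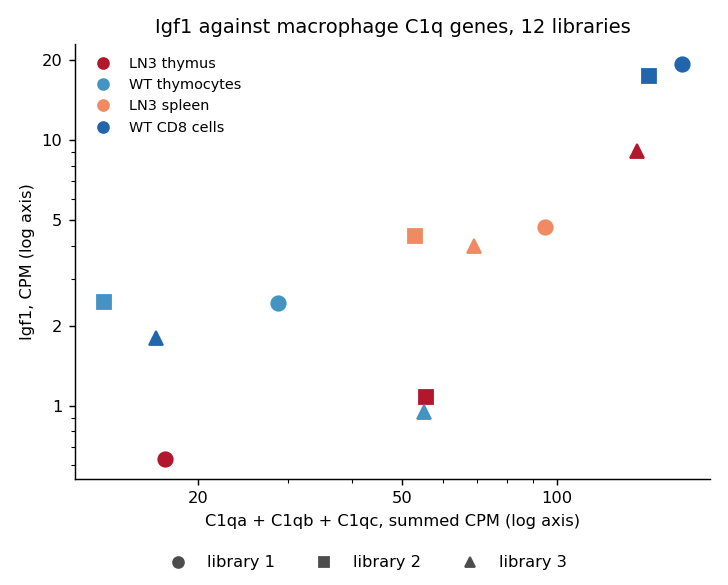
Igf1 in CPM against the summed CPM of C1qa, C1qb and C1qc in the 12 libraries, both on log axes, coloured by group and shaped by library number. WT CD8 libraries 1 and 2 and LN3 thymus library 3 lie at the top right, with Igf1 at 9.07 to 19.4 CPM, and the other 9 libraries lie at 0.630 to 4.71 CPM.

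The ligand gene Igf2 (chr7:142650766-142666816, minus strand), imprinted and active mainly in the fetus, was close to the floor in every group. It had 1, 1 and 3 counts in LN3 thymus, against 10, 5 and 6 counts in WT thymocytes, and 1, 3 and 0 counts in LN3 spleen, against 21, 10 and 15 counts in WT CD8 cells. Every LN3 library had fewer Igf2 counts than every wild-type library. When the filter on low counts was dropped, the log2 difference was -2.71 in the thymus (edgeR adjusted p = 0.082) and -3.10 in the spleen (edgeR adjusted p = 0.0184). Gm49394, an annotated gene on the same strand that shares 3596 exonic bases with Igf2, was given 4 counts in WT thymocyte library 3 and none elsewhere. At this depth Igf2 was at or below 3 counts in all 6 LN3 libraries.

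Igfbp4, a secreted protein that binds the IGFs (chr11:99041244-99054392, plus strand), had 35.7, 130 and 371 CPM in LN3 thymus, against 49.9, 48.1 and 123 CPM in WT thymocytes. It had 225, 417 and 247 CPM in LN3 spleen, against 101, 104 and 147 CPM in WT CD8 cells. The thymus groups overlapped, while every LN3 spleen library lay above every WT CD8 library. The log2 differences were 1.28 in the thymus (interval -0.10 to 2.66, edgeR adjusted p = 0.239) and 1.34 in the spleen (interval -0.04 to 2.72, edgeR adjusted p = 0.124), so neither passed. The spleen call depended on the other groups in the fit: with LN3 spleen and WT CD8 libraries alone it was 1.36 (edgeR adjusted p = 0.0103), and without LN3 thymus library 1 it was 1.36 (edgeR adjusted p = 0.0456). Without LN3 thymus library 3 the Igfbp4 difference in the thymus was 0.16 (edgeR adjusted p = 0.916).

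Between the leukaemias of the 2 organs, LN3 spleen against LN3 thymus, 0 of the 8 genes were called by edgeR, DESeq2 or limma, where 0.723% of all genes tested were called by edgeR, 0.694% higher and 0.0287% lower. Grb10 was the 1 gene with an unadjusted p below 0.05 (log2 difference 2.10, SE 0.92, edgeR adjusted p = 0.535), at 2.09, 0.492 and 1.14 CPM in LN3 spleen, against 0.0420, 0.331 and 0.451 CPM in LN3 thymus. In the test of whether the LN3 difference varied with the organ, 0 of the 8 were called by edgeR, DESeq2 or limma and 0 had an unadjusted p below 0.05 in edgeR, where 4.19% of all genes were called, 3.29% with a positive and 0.895% with a negative value. The intervals of that test were wide for Igf1, at -5.34 to 0.41, and narrow for Igf2r, at -0.59 to 0.98.

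Between the normal cells, WT CD8 cells against WT thymocytes, 1 of the 8 genes was called, where 15.7% of all genes tested were called, 7.24% higher and 8.49% lower. Grb10 had 0.984, 9.46 and 2.47 CPM in WT CD8 cells, against 0.270, 0.429 and 0.602 CPM in WT thymocytes (log2 difference 3.32, SE 0.93, edgeR adjusted p = 0.0291). The call rested on few counts and was lost when WT CD8 library 2 was left out (1.99, edgeR adjusted p = 0.173), when WT thymocyte library 1, 2 or 3 was left out (3.03, 3.29 and 3.63, edgeR adjusted p = 0.111, 0.0801 and 0.0627), and with limma on the variance-stabilized values (1.81, adjusted p = 0.0819). WT CD8 library 2 was also the library with the highest sum of macrophage markers, at 2941 CPM, and the part of these cells in the Grb10 value was not tested. Igf1 was higher by 2.72 in WT CD8 cells without passing (SE 0.98, edgeR adjusted p = 0.0836), and it passed with DESeq2 (2.72, adjusted p = 0.0145), without LN3 thymus library 3 (2.71, edgeR adjusted p = 0.0273) and without WT CD8 library 3 (3.23, edgeR adjusted p = 0.0324).

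Likeness to Igf1r was measured over all 12 libraries by the Pearson correlation of log2 CPM among 11187 genes with a mean of at least 5 CPM, as a description with no test. The 5 genes most like Igf1r were Antxr1 (0.979), Col27a1 (0.962), Zfp111 (0.955), Arhgef5 (0.948) and Fads6 (0.946). The 5 most like Irs1 were Myo5b (0.979), Mtss1l (0.967), Olfml3 (0.963), Glce (0.962) and Efr3b (0.961). No gene was on both lists. By Spearman rank correlation, 0 of the 5 most like Igf1r and 1 of the 5 most like Irs1, Mtss1l, were the same genes, and the 12 points share 4 groups and their library depths.

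Beyond these 9 genes, 91 other genes of the insulin and IGF pathway were listed, and 78 were tested. In LN3 thymus against WT thymocytes 3 of the 78 were higher and 4 lower, which is 8.97% against 11.3% of all genes tested, with a median log2 difference of -0.06. DESeq2 called 12 of them and limma 7. In LN3 spleen against WT CD8 cells 13 were higher and 8 lower, which is 26.9% against 30.9% of all genes tested, with a median of 0.09, and DESeq2 called 23 and limma 13. The share of the wider pathway called was thus close to the background in both organs, and the changes below concern single genes.

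**Figure D5:**
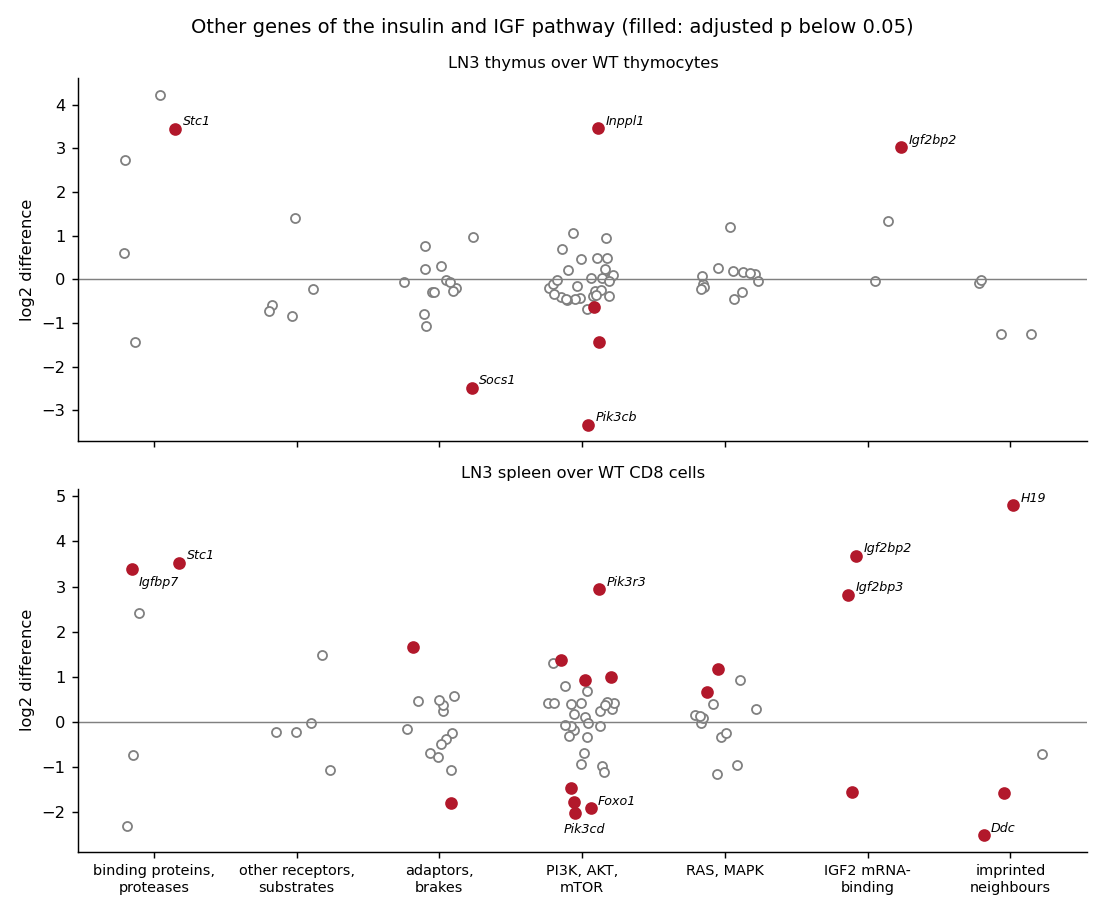
Log2 difference of LN3 over wild-type cells for the other tested pathway genes, grouped by role, in the thymus (upper panel) and the spleen (lower panel). Filled circles have an adjusted p below 0.05 in the edgeR fit, called genes with a difference beyond 1.9 in either direction are named, and Foxo6, without a count in WT CD8 cells, is left out.

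Of the binding proteins and the factors that regulate their proteases, 5 of 12 were tested. Stc1, whose product inhibits the protease that cleaves IGFBP4, was higher in both organs. It ran from 2.07 to 23.5 CPM in LN3 thymus and from 0.430 to 1.28 CPM in WT thymocytes (log2 difference 3.45, edgeR adjusted p = 0.0342), and from 1.66 to 13.1 CPM in LN3 spleen and from 0.411 to 0.656 CPM in WT CD8 cells (3.52, edgeR adjusted p = 0.0149). The Stc1 call was lost under 7 of 21 alternatives in the thymus and 3 of 21 in the spleen. Without LN3 thymus library 1 the thymus value was 2.01 (edgeR adjusted p = 0.151), without WT thymocyte library 1, 2 or 3 the adjusted p was 0.0926, 0.0877 and 0.0947, and without LN3 spleen library 3 the spleen value was 2.16 (edgeR adjusted p = 0.0974), with 0.0518 and 0.0514 without WT CD8 library 2 or 3. Igfbp7, a secreted binding protein, was higher in the spleen (3.38, edgeR adjusted p = 0.0386), at 0.956 to 12.7 CPM in LN3 cells and 0.190 to 0.984 CPM in WT CD8 cells. The Igfbp7 difference was 1.17 without LN3 spleen library 1 (edgeR adjusted p = 0.354), and without WT CD8 library 2 or 3 it had an adjusted p of 0.114 each, and the call was lost under 10 of 21 alternatives in all.

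Of the other receptors and substrates, 5 of 8 were tested and 0 were called by edgeR in either organ, with 1 at an unadjusted p below 0.05 in the thymus and 0 in the spleen. Of 14 tested adaptors and brakes, Socs1, a feedback inhibitor of cytokine and insulin signalling, was lower in the thymus, at 19.1 ± 4.67 CPM in LN3 cells and 107 ± 66.0 CPM in WT thymocytes (log2 difference -2.48, edgeR adjusted p = 0.00838). Its relative Socs3 was lower in the spleen, at 24.4 ± 9.07 CPM in LN3 cells and 85.7 ± 21.2 CPM in WT CD8 cells (-1.81, edgeR adjusted p = 0.00751). Nedd4, a ubiquitin ligase that binds GRB10 and acts on IGF1R, was higher in the spleen, at 363 ± 94.2 CPM in LN3 cells and 115 ± 19.9 CPM in WT CD8 cells (1.65, edgeR adjusted p = 0.000485; SD, n = 3 each).

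All 34 genes of the PI3K, AKT and mTOR list were tested, and 1 was higher and 3 lower in the thymus, 5 higher and 4 lower in the spleen. Inppl1, the lipid phosphatase SHIP2, was at 36.3 ± 9.70 CPM in LN3 thymus and 3.30 ± 1.23 CPM in WT thymocytes (log2 difference 3.46, edgeR adjusted p = 0.00162). Inpp5d, the related phosphatase SHIP1 of blood cells, was lower, at 66.6 ± 45.5 CPM in LN3 thymus and 179 ± 57.6 CPM in WT thymocytes (-1.43, edgeR adjusted p = 0.0341). The Inpp5d call was lost under 7 of 21 alternatives: without the 3 libraries of strongest GC rise (-0.81, adjusted p = 0.266), with the thymus libraries alone (0.115), without LN3 thymus library 1 or 2 (-1.22 and -1.15, edgeR adjusted p = 0.11 and 0.135), without WT thymocyte library 1 or 3 (0.0599 and 0.104) and without WT CD8 library 1 (0.0501). Pik3cb, a catalytic subunit of PI3 kinase, was at 1.30 ± 0.622 CPM in LN3 thymus and 13.3 ± 1.94 CPM in WT thymocytes (-3.33, edgeR adjusted p = 0.00119). It was also the 1 pathway gene called between the organs of LN3 mice, at 11.7 ± 5.09 CPM in LN3 spleen and 1.30 ± 0.622 CPM in LN3 thymus (3.14, edgeR adjusted p = 0.0169; SD, n = 3 each). This Pik3cb call was lost without LN3 thymus library 1 or 2 (edgeR adjusted p = 0.0999 and 0.0944) and without LN3 spleen library 3 (0.0505). It was also lost without the 3 libraries of strongest GC rise (0.292) and in LN3 libraries alone (0.0564). The same held with the library number as a block in all libraries or in LN3 libraries alone (0.0602 and 0.0983). Only in LN3 libraries is that number a tumour number. The log2 differences under these alternatives were 2.84 to 3.22.

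In the spleen, Pik3r3, a regulatory subunit of PI3 kinase, was at 19.8 ± 9.59 CPM in LN3 cells and 2.56 ± 0.723 CPM in WT CD8 cells (log2 difference 2.94, edgeR adjusted p = 0.000383). Pik3cd, the leukocyte catalytic subunit, was at 199 ± 56.2 CPM in LN3 cells and 806 ± 109 CPM in WT CD8 cells (-2.02, edgeR adjusted p = 0.000637). Foxo1, a transcription factor that AKT keeps out of the nucleus, was at 70.4 ± 4.97 CPM in LN3 cells and 267 ± 43.3 CPM in WT CD8 cells (-1.92, edgeR adjusted p = 0.000377; SD, n = 3 each). Foxo6 was called higher (edgeR adjusted p = 0.0121) on 44, 42 and 0 counts in LN3 spleen, against 0 counts in all 3 WT CD8 libraries, so that the groups touch at 0 and no fold is given. The Foxo6 call was lost with limma and with the spleen libraries alone (adjusted p = 0.0509 and 0.0503).

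Of 13 RAS and MAPK genes, 0 were called by edgeR in the thymus, with 1 at an unadjusted p below 0.05, and 2 were higher in the spleen. Nf1, which switches RAS off, was at 83.3 ± 29.2 CPM in LN3 spleen and 37.1 ± 7.15 CPM in WT CD8 cells (log2 difference 1.17, edgeR adjusted p = 0.0315; SD, n = 3 each). The Nf1 call was lost under scaling by library totals or upper quartiles (adjusted p = 0.23 and 0.132), without LN3 spleen library 2 (0.101) and without WT CD8 library 1, 2 or 3 (0.0683, 0.0541 and 0.107).

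The 3 genes of IGF2 mRNA-binding proteins were all tested. Igf2bp2 was at 21.7 ± 3.42 CPM in LN3 thymus and 2.66 ± 0.919 CPM in WT thymocytes (log2 difference 3.02, edgeR adjusted p = 0.000991), and at 39.1 ± 22.0 CPM in LN3 spleen and 3.03 ± 0.784 CPM in WT CD8 cells (3.68, edgeR adjusted p = 0.000112). Limma on the deposited variance-stabilized values did not call Igf2bp2 in either organ (1.43 and 1.33, adjusted p = 0.311 and 0.239). These sizes were smaller than those given by the counts, and the reason was not tested. Igf2bp3 was higher in the spleen, at 15.8 to 130 CPM in LN3 cells and 3.22 to 17.2 CPM in WT CD8 cells, ranges that overlap (2.81, edgeR adjusted p = 0.0304). Igf2bp1 was scarce and lower in the spleen, at 0.471 ± 0.132 CPM in LN3 cells and 1.36 ± 0.0618 CPM in WT CD8 cells (-1.56, edgeR adjusted p = 0.0323; SD, n = 3 each). The Igf2bp3 call was lost under 6 and the Igf2bp1 call under 8 of 21 alternatives. Among these, the Igf2bp3 call was lost without LN3 spleen library 3 (edgeR adjusted p = 0.192) or without WT CD8 library 1 or 3 (0.103 and 0.0945), and the Igf2bp1 call without LN3 spleen library 2 or 3 (0.109 and 0.0895), without WT CD8 library 1, 2 or 3 (0.0847, 0.0773 and 0.0751) or without WT thymocyte library 1 (0.0527).

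Of the 4 genes listed as imprinted neighbours, 0 were called in the thymus by edgeR, with 1 at an unadjusted p below 0.05, and 3 in the spleen. H19, the maternally expressed RNA beside Igf2, had 8, 60 and 27 counts in LN3 spleen, against 0, 4 and 0 counts in WT CD8 cells (log2 difference 4.80, edgeR adjusted p = 0.00814). Ddc, which lies beside Grb10, was at 1.15 ± 0.521 CPM in LN3 spleen and 6.75 ± 1.64 CPM in WT CD8 cells (-2.52, edgeR adjusted p = 0.00358). Meg3, an imprinted RNA of another locus, was at 0.452 ± 0.0141 CPM in LN3 spleen and 1.38 ± 0.387 CPM in WT CD8 cells (-1.59, edgeR adjusted p = 0.0234; SD, n = 3 each). The Meg3 call was lost under 7 of 21 alternatives: with limma (-0.90, adjusted p = 0.28), without the filter on low counts (0.0742), and without LN3 spleen library 1, 2 or 3 (0.0611, 0.0621 and 0.0687) or WT CD8 library 1 or 3 (0.0931 and 0.0534). Of the 22 differences that the naming rule picked in these lists, 10 were called under every alternative tried and 12 lost the call under at least 1.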

How the data were processed

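Poly(A) RNA of 12 mouse libraries in 4 groups of 3 was analysed. The values analysed are estimated counts per gene as deposited. The submitters' processing notes name kallisto 0.46.1, GRCm38, FastQC and DESeq2; the sources used here state neither the annotation release nor the use of strand. Variance-stabilized log2 values, also deposited, served 1 alternative. Estimated counts were rounded to whole numbers. Of 54351 genes, 16997 had no count and 20897 passed filterByExpr.

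Fits used edgeR 4.0.16 (R 4.3.3), TMM scaling and the robust quasi-likelihood test, with 1 mean per group and 8 residual degrees of freedom from the 12 libraries, Benjamini-Hochberg adjustment over all genes tested and a threshold of 0.05; the common biological coefficient of variation was 0.4411. Ratios within a library were tested by exact two-sided permutation in scipy 1.17.1. The fit was tested on simulated data. Alternatives used limma 3.58.1, DESeq2 1.42.0, other scalings, no filter, fewer libraries, each library left out, and a replicate block. Gene models came from GENCODE M21 and promoter windows from RefSeq.

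Named genes were the 9 members, the 2 called genes with the largest difference per direction in each pathway list and each LN3 against wild-type comparison, the imprinted neighbours, and the 5 genes most like Igf1r and Irs1. Of these, 1 gene is not reported here. Members and lists were chosen with earlier results of these data known. The floor of 3 counts covers counting error only.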

Additional observations from a re-analysis of the deposited data

Results flagged for a closer look

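None of the 8 tested members of the IGF axis differed between organs in its LN3 against wild-type contrast by the interaction test of edgeR, DESeq2 or limma, and 3 genes of the wider pathway did by the edgeR interaction. The value is the LN3 against wild-type log2 difference in the spleen minus that in the thymus.

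Nedd4, the ubiquitin ligase that acts with GRB10, differed by 1.41 (adjusted p = 0.0364). It was at 363 ± 94.2 CPM in LN3 spleen and 115 ± 19.9 CPM in WT CD8 cells, and at 277 ± 26.5 CPM in LN3 thymus and 234 ± 19.9 CPM in WT thymocytes (SD, n = 3 each).

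Foxo1 differed by -1.87 (adjusted p = 0.0154). It was at 70.4 ± 4.97 CPM in LN3 spleen and 267 ± 43.3 CPM in WT CD8 cells, and at 93.3 ± 27.6 CPM in LN3 thymus and 96.6 ± 25.3 CPM in WT thymocytes (SD, n = 3 each).

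H19 differed by 6.05 (adjusted p = 0.0339). It had 8, 60 and 27 counts in LN3 spleen and 0, 4 and 0 counts in WT CD8 cells, and 24, 16 and 219 counts in LN3 thymus and 56, 58 and 155 counts in WT thymocytes.

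The interaction of Foxo1 was lost without WT thymocyte library 1 (adjusted p = 0.0546). That of Nedd4 was lost under 12 alternatives, 8 of them without 1 library, with adjusted p up to 0.132, and that of H19 under 9, 7 of them without 1 library, with adjusted p up to 0.11.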

How the results depend on the processing

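Igf1r and Irs1 were called higher in both organs under all 21 alternatives: Igf1r at 1.57 to 1.98 in the thymus and 1.16 to 2.11 in the spleen (highest adjusted p 0.0459 and 0.0352), Irs1 at 4.39 to 5.79 and 5.93 to 7.91 (0.018 and 0.00276). Of 840 member values under alternatives, 826 kept the call, 7 lost it and 7 gained it, and 47 without a call changed sign. Of all 2228 gene and ratio values 2083 kept the call, 108 lost it, 37 gained it and 0 called ones changed sign. By longest transcript, Igf1r ranked 2 in LN3 thymus, 4 in WT thymocytes and 4 in WT CD8 cells. A prior count of 5 changed no direction of a ratio. By Spearman correlation, 0 of the 5 genes most like Igf1r and 1 of those most like Irs1 were shared.

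Correlations of deviations from the group means, between libraries of the same number, were 0.12, -0.50 and -0.10 in the thymus contrast. They were 0.35, -0.20 and 0.15 in the spleen contrast. Between LN3 spleen and LN3 thymus, whose libraries share tumour numbers in their titles, they were -0.09, -0.54 and -0.04. With 3 libraries per group, and with library effects such as GC content in the deviations, these correlations cannot show whether a number marks 1 animal. With a replicate block, 31 genes were called between LN3 spleen and LN3 thymus (151 without it), 118 with the block in LN3 libraries alone, and 532 in the interaction (875 without it), and Grb10 lost its call between the wild-type groups (adjusted p = 0.0724). Between LN3 spleen and LN3 thymus 43 genes were called with library totals, 652 with DESeq2, and 1 without the 3 libraries of strongest GC rise, which were chosen after seeing the data and without which Grb10 also lost its call (adjusted p = 0.0882). DESeq2 called 1759 in the interaction and 12 other pathway genes in LN3 thymus (7 with edgeR), limma called 13 in LN3 spleen (21 with edgeR), and the thymus groups alone gave 1482 genes (2354 with all). Leaving out 1 library gave 1233 to 2777 genes in LN3 thymus against WT thymocytes, 4047 to 8501 in LN3 spleen against WT CD8 cells (6453 with all), 0 to 255 between LN3 organs, 1922 to 3284 between wild-type groups (3287 with all) and 496 to 925 in the interaction, and 4 to 10 and 11 to 29 other pathway genes. Counts moved by over 1.5 times without LN3 thymus library 2 or WT thymocyte library 1 in the thymus (1475 and 1233 genes), without LN3 spleen library 3 or WT CD8 library 1 in the spleen (4047 and 4126), without WT thymocyte library 1 or WT CD8 library 1 or 2 between wild-type groups (2123, 1922 and 2009), and without LN3 thymus library 3, WT thymocyte library 1 or WT CD8 library 1 or 3 in the interaction (534, 556, 496 and 539). Between LN3 organs the count was 0 without LN3 thymus library 1 or 2. Other pathway genes called numbered 4 in the thymus without WT thymocyte library 1, and 13 and 11 in the spleen without WT CD8 library 2 or 3. The cause was not tested.

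Scaling by library totals or upper quartiles shifted the median log2 difference over all genes (-0.20 and -0.17 in the thymus, -0.40 and -0.33 in the spleen). Higher calls then made up 38.2% and 41.2% of calls in the thymus (53.8% with TMM), and 40.0% and 41.7% in the spleen (58.0% with TMM). Irs1 was near the floor of 3 counts in the wild-type groups. Igf2 was at or below that floor in every LN3 library and not far above it in the wild-type ones. This limits the precision of the folds of both genes.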
